A study of Mus musculus with 4 samples.

Results

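The genes described here encode the proteins of the cytosolic ribosome in mouse CD8+ T cells. They were chosen by symbol and annotation: protein-coding Rpl, Rps, Rplp and Rpsa genes whose FPKM averaged 1 or more. FPKM is the number of sequencing tags on the exons of a gene, scaled by exon length and by the size of the library. The rule gave 76 of the 24537 genes in the table, 46 for the large subunit and 30 for the small subunit. No gene with a matching symbol fell below the limit: the lowest, Rpl28, stood at 2.32 FPKM in mean, so all 76 were also among the 9810 genes tested. Rps3a1, Fau and Rack1 encode ribosomal proteins too, but their symbols lie outside the rule.

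The study measured RNA by sequencing in CD8+ T cells labelled as TIL, with B16-GP33 tumor as the treatment and Day 21 as the time. B16 cells are mouse melanoma cells, and GP33 names a viral epitope seen by CD8+ T cells. There were 2 libraries of genotype ACSS2NLS and 2 of genotype EV, to which ACSS2NLS is compared. The enzyme ACSS2 turns acetate into acetyl-CoA, and NLS is the usual short form of nuclear localisation signal. All 4 libraries share the tumour, the day and the cell type, and no group with ACSS2 lacking the NLS was analysed here. How ACSS2NLS was brought into the cells, the mouse strain and age, and the number of animals behind a library do not stand in the labels. The p-values below therefore reflect the spread of these libraries alone, and that spread may be technical. Acss2 was at 80.7 and 86.3 FPKM in the ACSS2NLS libraries and at 3.66 and 3.92 FPKM in the EV libraries, which matches the labels. In bulk samples, fewer cells of a type and less RNA per cell cannot be told apart.

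The ribosome translates messenger RNA. Its small subunit reads the codons and its large subunit joins the amino acids, and each ribosome needs a single copy of nearly every protein. The messenger RNAs of these proteins are short, abundant and begin with a run of pyrimidines (the TOP sequence), through which mTOR signalling sets their translation. In T cells, ribosome production is known to go up when a resting cell is activated and divides.

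Pyrimidine runs of differing length lie near the start sites of members that stand at both ends of the range of change. Such a run need not span the start, so it is not shown to be the TOP sequence. Those of Rpl4 and Rpl5 end before the start site, and those of Rps23, Rpl36a and Rpl10 begin after it. Run length and change over all matched members are given in the next paragraph. The sequences below run from 60 bases before to 20 bases after the RefSeq start site (GRCm38.p6, sense strand), with the longest pyrimidine run that touches the 20 bases around the start in capitals. The first 4 belong to members among those with the largest log2 change, and the last 2 to the members with a lower mean in ACSS2NLS. Rpl4 and Rps6 lie between them.
Rps21 (chr2:180257319-180257398, plus strand): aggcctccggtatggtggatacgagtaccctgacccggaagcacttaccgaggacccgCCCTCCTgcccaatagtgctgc
Rps23 (chr13:90923062-90923141, plus strand): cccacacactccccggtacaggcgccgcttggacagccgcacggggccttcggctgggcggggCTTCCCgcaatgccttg
Rpl14 (chr9:120571457-120571536, plus strand): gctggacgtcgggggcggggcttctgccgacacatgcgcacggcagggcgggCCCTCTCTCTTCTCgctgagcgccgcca
Rpl36a (chrX:134585594-134585673, plus strand): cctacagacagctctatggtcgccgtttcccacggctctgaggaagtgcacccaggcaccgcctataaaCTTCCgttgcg
Rpl4 (chr9:64173327-64173406, plus strand): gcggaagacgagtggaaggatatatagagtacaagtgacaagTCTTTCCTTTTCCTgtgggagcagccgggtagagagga
Rps6 (chr4:86857348-86857427, minus strand): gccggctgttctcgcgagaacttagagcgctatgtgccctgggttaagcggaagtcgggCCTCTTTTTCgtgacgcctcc
Rpl10 (chrX:74270756-74270835, plus strand): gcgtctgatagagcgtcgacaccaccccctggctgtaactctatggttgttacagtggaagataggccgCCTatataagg
Rpl5 (chr5:107900468-107900547, plus strand): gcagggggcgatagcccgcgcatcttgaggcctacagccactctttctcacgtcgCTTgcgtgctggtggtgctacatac

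RefSeq promoter windows were matched for 56 of the 76 members. The run was at least 6 bases long in 32 of the 56, or 57.1%, against 29.2% of all 32851 promoters of the same length. The letters CTTTCC, on the sense strand and anywhere in the 300 bases, were in 35.7% of the members' windows and in 14.1% of all windows. They lay inside the run near the start in 9 members. The letters CCGGAAG, the core that ETS family factors such as GABPA bind, were found on either strand in 39.3% of the members' windows and in 8.86% of all windows. Both motifs were present in 9 members, and CCGGAAG on the opposite strand begins with pyrimidines and can overlap a run. These matches describe letters only. Members with a run of at least 6 bases had a median log2 change of 0.30 between ACSS2NLS and EV, and the 24 with a shorter run had 0.27.

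Almost every ribosomal protein gene had a higher level in ACSS2NLS than in EV, by a small amount, and none passed the test on its own. A log2 change here is the mean of log2(FPKM + 1) in ACSS2NLS less that in EV, and it understates the change of low genes. Of the 76 genes, 74 were higher in mean and 2 lower, where 53.2% of all genes tested were higher. The median log2 change of the 76 was 0.29, against 0.015 over all genes tested, and the single values spanned -0.10 to 0.57. In 58 genes both ACSS2NLS libraries lay above both EV libraries, a pattern seen in 19.3% of all genes tested, and in 0 genes both lay below, against 18.1% of all genes tested. The groups therefore did not overlap for most members.

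No member passed an adjusted p of 0.05 in limma-trend with Benjamini-Hochberg adjustment over all 9810 genes, where 0.0204% of the genes passed. The smallest adjusted p of a member was 0.81. At an unadjusted p under 0.05, 16 members were higher and 0 lower, where 3.1% of all genes tested were higher and 2.87% lower. An exact permutation test of 2 against 2 libraries cannot give a p below 0.333.

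**Figure D1:**
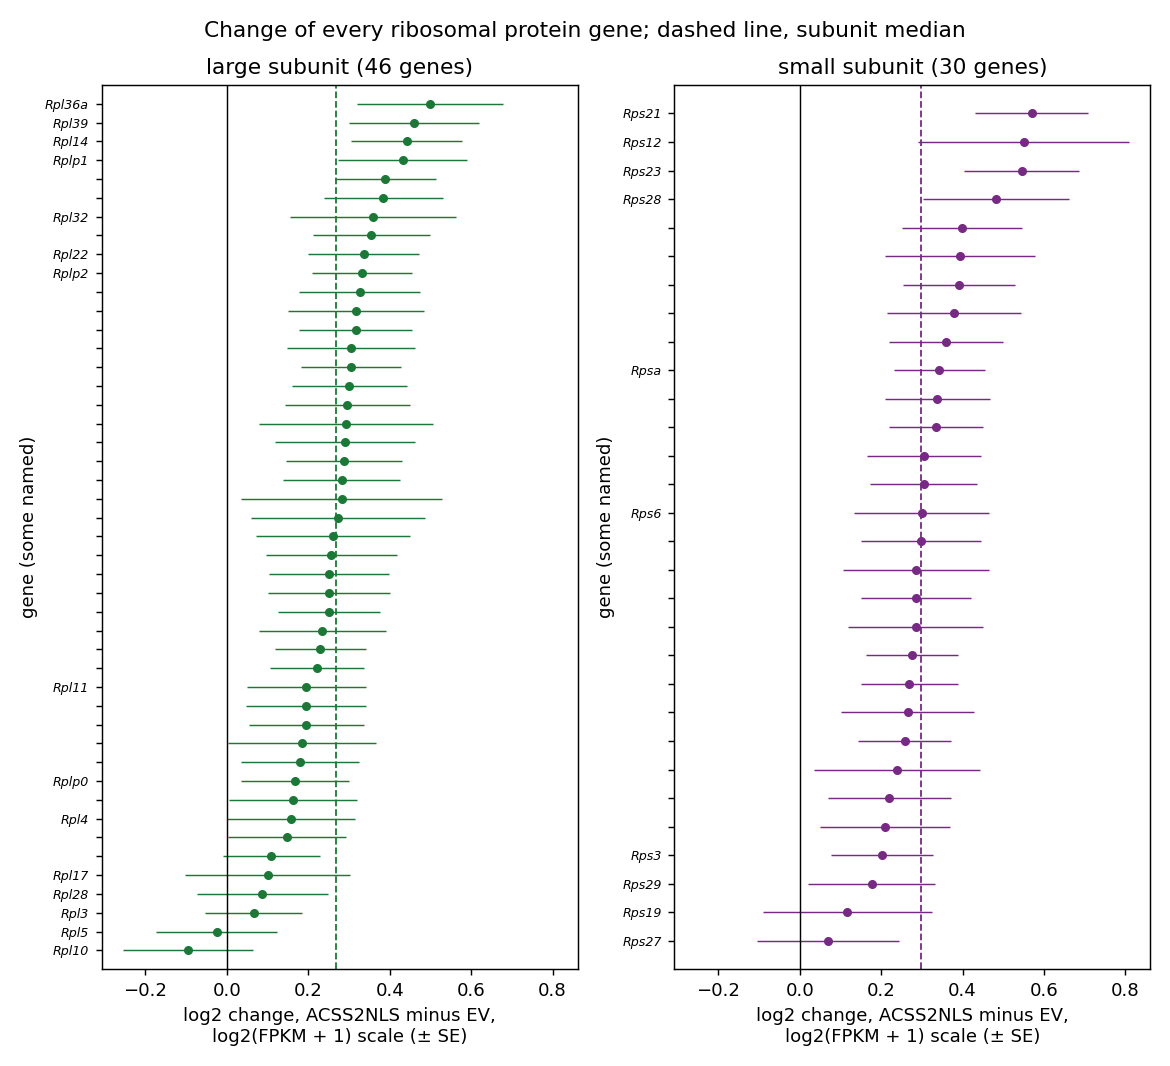
Log2 change (ACSS2NLS minus EV on the log2(FPKM + 1) scale, x axis) of each of the 46 large-subunit and 30 small-subunit genes (y axis, with names for some of them). Points are fitted changes, bars are ± 1 SE (n = 2 libraries per group) and dashed lines are subunit medians; Rpl10 and Rpl5 are the 2 genes to the left of 0.

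The subunits were alike in direction and close in size. Of the small-subunit genes, 30 of 30 were higher in ACSS2NLS, with a median log2 change of 0.30 and a range of 0.071 to 0.57. Of the large-subunit genes, 44 of 46 were higher, with a median of 0.27 and a range of -0.10 to 0.50. Both ACSS2NLS libraries lay above both EV libraries for 24 small-subunit and 34 large-subunit genes, against 19.3% of all genes tested. The large-subunit median minus the small-subunit median was -0.032.

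The balance between the subunits barely moved between libraries. The summed FPKM of the large-subunit genes was 2799.9 and 2296 in the ACSS2NLS libraries, against 2103 and 2067 in the EV libraries. That of the small-subunit genes was 2045 and 1677 in the ACSS2NLS libraries, against 1536 and 1494 in the EV libraries. Large over small was thus 1.37 and 1.37 in ACSS2NLS and 1.37 and 1.38 in EV. For 11 genes, at most 1 other gene has an annotated transcript with a near-identical copy, a limit chosen after the data were seen. Among these 11 the difference of the medians had the other sign, at 0.051. No direction between the subunits can be drawn from such values.

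The library ACSS2NLS replicate 1 had the highest level for most of the genes. It was the highest of the 4 libraries for 66 of the 76 members, where 24.3% of all genes tested were highest in it. ACSS2NLS replicate 2 was the highest for 6 members, Rps12, Rpl10a, Rpsa, Rpl15, Rpl30 and Rpl9. EV replicate 1 was the highest for Rpl10, and EV replicate 2 for Rps27, Rpl3 and Rpl5. Set against the EV mean of each gene, the median level was 1.35-fold in ACSS2NLS replicate 1 and 1.12-fold in ACSS2NLS replicate 2. The second ACSS2NLS library was above both EV libraries for 58 members, where 43.4% of all genes tested were. Its distance from EV was thus smaller, and the same way for most members.

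Relative to each gene's own mean over the 4 libraries, the median member stood at 0.27 and 0.022 in ACSS2NLS replicates 1 and 2, against -0.14 and -0.13 in EV replicates 1 and 2, on the log2(FPKM + 1) scale. The EV libraries were close together: EV replicate 1 was above EV replicate 2 for 35 of 76 members, and in 70 members both EV libraries lay within 10% of their mean. Without ACSS2NLS replicate 1 the median log2 change of the members was 0.15, with 69 of 76 higher in mean, and without ACSS2NLS replicate 2 it was 0.41. The large-subunit median was 0.13 without ACSS2NLS replicate 1 and 0.41 without ACSS2NLS replicate 2.

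**Figure D2:**
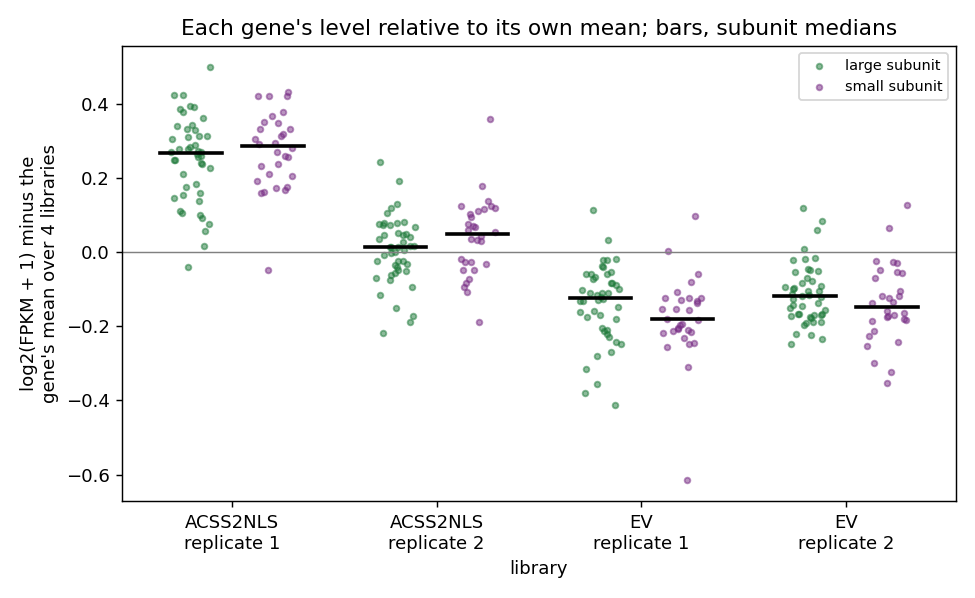
Level of each ribosomal protein gene in each library (x axis) relative to that gene's own mean over the 4 libraries, in log2(FPKM + 1) units (y axis). Each point is a gene and black bars are subunit medians; the 2 subunits move together, highest in ACSS2NLS replicate 1 (overall median 0.27) and lowest in the EV libraries (-0.14 and -0.13).

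Other short genes shifted the same way in ACSS2NLS replicate 1, by less. The members had a median exon length of 705.5 bases, against 2508 bases over all genes tested. Among the 589 other tested genes under 1000 bases and at 10 FPKM or more in mean, 386 were higher in ACSS2NLS, the median log2 change was 0.080, and 402 were highest in ACSS2NLS replicate 1. Their median level was 1.15-fold the EV mean in ACSS2NLS replicate 1 and 0.963-fold in ACSS2NLS replicate 2. The 18 members of 1000 bases or more had a median log2 change of 0.23, with 17 higher, and the 58 shorter members had 0.29, with 57 higher. Across the 76 members, which share libraries and are not independent, exon length and log2 change had a Spearman correlation of -0.26 and a Pearson correlation of -0.090. For coding length these were -0.40 and -0.41. The part of gene length in the result was not tested.

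Transcripts of other cells also differed between the libraries. The summed FPKM of 9 melanoma markers was 11.2 and 139 in the ACSS2NLS libraries, against 5.48 and 38.6 in the EV libraries, with Gpr143 at 0 in at least 1 library. That of 20 myeloid markers was 571 and 1741 in ACSS2NLS, against 253 and 1184 in EV, with S100a9 at 0 in at least 1 library. Of the 20, 17 had a higher mean in ACSS2NLS, and S100a8, S100a9 and Cd14 went the other way. S100a8 was at 0.053 and 0.802 FPKM in ACSS2NLS and at 3.205 and 24.4 FPKM in EV. S100a9 was at 0 and 0.401 FPKM in ACSS2NLS and at 2.87 and 24.1 FPKM in EV. Cd14 was at 3.09 and 5.04 FPKM in ACSS2NLS and at 5.896 and 29.1 FPKM in EV. Replicate 1 was the lower library of its group in both lists. The median ribosomal protein gene was highest in ACSS2NLS replicate 1 and about equal in the EV libraries. With the melanoma marker level as a covariate, in a fit with 1 residual degree of freedom, the median log2 change of the members was 0.36. That level was higher in mean in ACSS2NLS, but by the sums above the groups overlapped, with replicate 2 the higher library in each. The part of melanoma cells in the change was not tested.

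The defining markers of the labelled cell type were present. The 9 CD8+ T cell markers found in the table, of 10 listed, summed to 2179 and 1713 FPKM in ACSS2NLS and to 2359 and 1952 FPKM in EV, and 1 of the 9 had a higher mean in ACSS2NLS. The 4 B cell markers summed to 2.97 and 3.11 FPKM in ACSS2NLS and to 1.58 and 2.38 FPKM in EV. The 6 stromal and endothelial markers summed to 17.3 and 17.9 FPKM in ACSS2NLS and to 8.58 and 14.3 FPKM in EV, with Col3a1, Dcn and Cdh5 at 0 in at least 1 library. The 5 CD4 T cell markers summed to 97.3 and 31.8 FPKM in ACSS2NLS and to 173 and 83.01 FPKM in EV. Most of that sum was Ctla4, which activated CD8+ T cells also express, at 89.8 and 20.4 FPKM in ACSS2NLS and 166 and 73.4 FPKM in EV, while 4 of the 5 had a higher mean in ACSS2NLS. The 5 NK cell markers summed to 12.2 and 10.8 FPKM in ACSS2NLS and to 7.203 and 9.44 FPKM in EV. Most of that sum was Eomes, at 9.335 and 9.164 FPKM in ACSS2NLS and 4.232 and 5.517 FPKM in EV. Of the 5 NK cell markers, 2 had a higher mean in ACSS2NLS. The 5 red blood cell markers summed to 16.3 and 4.38 FPKM in ACSS2NLS and to 7.02 and 11.3 FPKM in EV. The part of these cells in the result was not tested.

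The stalk of the large subunit, which recruits translation factors, is built from Rplp0, Rplp1 and Rplp2 on a base that includes Rpl12. Rplp1 (NM_018853; mm10 chromosome 9, 61913283 to 61914510, minus strand) was at 168 and 131 FPKM in the ACSS2NLS libraries and at 108 and 112 FPKM in the EV libraries. Its log2 change was 0.43 ± 0.16 (SE, n = 2 per group; limma-trend, adjusted p = 0.81). Rplp2, its partner in the stalk dimers, was at 88.4 and 78.6 FPKM in ACSS2NLS and at 63.9 and 68.2 FPKM in EV. Both genes had every ACSS2NLS value above every EV value. Rplp0, the base on which those dimers sit, was at 195 and 177 FPKM in ACSS2NLS and at 168 and 161 FPKM in EV, a log2 change of 0.17 ± 0.13. Rpl12 was at 10.1 and 8.39 FPKM in ACSS2NLS and at 5.92 and 8.999 FPKM in EV, so its groups overlapped.

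Among proteins at the exit tunnel, through which the new peptide leaves, all 9 genes listed were higher in mean, with a median log2 change of 0.28. Rpl39, a very small protein of the tunnel wall (NM_026055; mm10 chromosome X, 37082518 to 37085222, minus strand), was at 37.9 and 30.3 FPKM in ACSS2NLS and at 22.3 and 26.7 FPKM in EV. Its log2 change was 0.46 ± 0.16, and the groups did not overlap. Rpl22, which mouse alpha-beta T cells need for their development, was at 13.1 and 11.2 FPKM in ACSS2NLS and at 9.86 and 8.92 FPKM in EV. Its log2 change was 0.34 ± 0.14. Rpl17, another tunnel protein, was at 3.64 and 2.40 FPKM in ACSS2NLS and at 2.56 and 2.86 FPKM in EV, with overlapping groups.

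Rpl36a and Rpl14 had, with Rpl39 and Rplp1, the largest changes of the large subunit. Rpl36a, a protein near the exit site for transfer RNA (NM_019865; mm10 chromosome X, 134585654 to 134588062, plus strand), was at 10.8 and 8.24 FPKM in ACSS2NLS and at 5.73 and 7.07 FPKM in EV (log2 change 0.50 ± 0.18). Rpl14, a protein of the subunit surface (NM_025974; mm10 chromosome 9, 120571517 to 120574653, plus strand), was at 76.8 and 62.9 FPKM in ACSS2NLS and at 50.9 and 50.9 FPKM in EV. Its log2 change was 0.44 ± 0.14, with an unadjusted p of 0.0204. Rpl10a, which forms the L1 stalk, was at 10.9 and 11.8 FPKM in ACSS2NLS and at 8.07 and 8.76 FPKM in EV (log2 change 0.39 ± 0.12). It is among the few members in which ACSS2NLS replicate 2 was the higher ACSS2NLS library. Rpl23 was at 12.9 and 11.3 FPKM in ACSS2NLS and at 8.19 and 9.88 FPKM in EV.

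The smallest changes of the large subunit were those of Rpl10, Rpl5 and Rpl3. Rpl10, which joins the large subunit late in its assembly (NM_052835; mm10 chromosome X, 74270816 to 74273135, plus strand), was at 6.13 and 4.87 FPKM in ACSS2NLS and at 6.23 and 5.60 FPKM in EV. Its log2 change was -0.10 ± 0.16, and the groups overlapped. Rpl5, which binds the small RNA of the large subunit and, with Rpl11, can hold MDM2, was at 3.44 and 3.61 FPKM in ACSS2NLS and at 3.38 and 3.84 FPKM in EV. Rpl11 was at 12.1 and 9.67 FPKM in ACSS2NLS and at 9.39 and 9.28 FPKM in EV, so the groups did not overlap, with ACSS2NLS replicate 2 close to EV. Rpl3, whose loop reaches the peptidyl transferase centre, was at 22.1 and 22.7 FPKM in ACSS2NLS and at 19.968 and 22.8 FPKM in EV. Its groups overlapped, as did those of Rpl10 and Rpl5.

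The large-subunit genes with the highest mean level were Rpl32, at 502 and 373 FPKM in ACSS2NLS and at 354 and 321 FPKM in EV, and Rpl4, at 361 and 323 FPKM in ACSS2NLS and at 318 and 293 FPKM in EV. Rpl4, whose extension lines the exit tunnel, had a log2 change of 0.16 ± 0.16, and Rpl32 had 0.36 ± 0.20. The lowest was Rpl28, at 2.64 and 2.20 FPKM in ACSS2NLS and at 2.23 and 2.20 FPKM in EV, followed by Rpl17.

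In the small subunit, Rps21 and Rps23 stood furthest from EV relative to their error. Rps21 (NM_025587; mm10 chromosome 2, 180257379 to 180258444, plus strand) was at 36.5 and 29.6 FPKM in ACSS2NLS and at 22.4 and 21.2 FPKM in EV. This was 1.51-fold in mean FPKM, with a log2 change of 0.57 ± 0.14 and an unadjusted p of 0.00779, the smallest of all members (limma-trend, adjusted p = 0.81). Rps23, a protein of the decoding centre (NM_024175; mm10 chromosome 13, 90923122 to 90924732, plus strand), was at 22.2 and 17.9 FPKM in ACSS2NLS and at 13.6 and 13.1 FPKM in EV, with a log2 change of 0.54 ± 0.14. In both genes the EV libraries were close together and below both ACSS2NLS libraries.

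Genes for the head of the small subunit were higher in 14 of 14 cases, with a median log2 change of 0.29, against 16 of 16 and 0.30 for the rest of that subunit. Rps28 was at 8.81 and 6.64 FPKM in ACSS2NLS and at 5.69 and 4.74 FPKM in EV (log2 change 0.48 ± 0.18), and Rps16 was at 14.9 and 12.5 FPKM in ACSS2NLS and at 10.6 and 9.71 FPKM in EV (0.39 ± 0.14). Rps12 was at 3.21 and 3.73 FPKM in ACSS2NLS and at 1.41 and 2.86 FPKM in EV, the lowest level of the small subunit. Its log2 change was 0.55 ± 0.26, and 0.21 without EV replicate 1, where it had 33 tags, the fewest of any member in any library.

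Rps3, which lies at the entry of the messenger RNA channel, was at 144 and 131 FPKM in ACSS2NLS and at 121 and 118 FPKM in EV (log2 change 0.20 ± 0.12). Rps29, a zinc-binding protein of the head, was at 16.8 and 13.1 FPKM in ACSS2NLS and at 12.4 and 13.6 FPKM in EV. Rps19, the gene most often mutated in human Diamond-Blackfan anaemia, was at 104 and 73.7 FPKM in ACSS2NLS and at 89.9 and 72.3 FPKM in EV. Its groups overlapped, and replicate 1 was the higher library in each. Over the 12 members listed here for that human disease, 11 were higher in ACSS2NLS with a median log2 change of 0.27. Of these, Rps26 was at 82.3 and 77.5 FPKM in ACSS2NLS and at 61.0 and 65.4 FPKM in EV, and Rps24 was at 24.3 and 19.0 FPKM in ACSS2NLS and at 15.9 and 16.3 FPKM in EV.

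Rps6, which S6 kinase phosphorylates downstream of mTOR, was at 9.75 and 7.35 FPKM in ACSS2NLS and at 6.53 and 6.88 FPKM in EV (log2 change 0.30 ± 0.17). Rpsa, a protein of the small subunit also known as the laminin receptor, was at 15.4 and 15.5 FPKM in ACSS2NLS and at 11.7 and 12.3 FPKM in EV (log2 change 0.34 ± 0.11). Its replicates agreed closely in both groups, and the groups did not overlap.

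**Figure D3:**
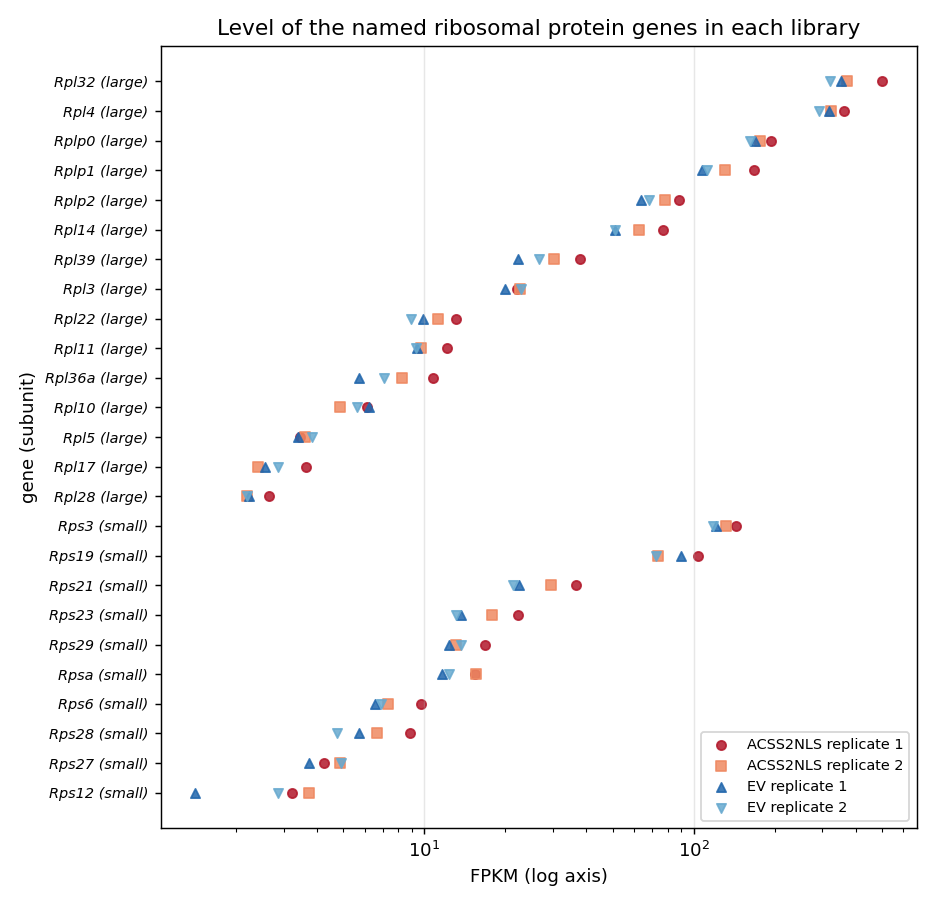
FPKM (x axis, log scale) in each of the 4 libraries for some of the ribosomal protein genes (y axis), ordered by mean level within each subunit. Colours and shapes mark libraries; for most genes ACSS2NLS replicate 1 is the rightmost point and the EV points lie to the left, while Rpl10, Rpl5, Rpl3 and Rps27 are mixed.

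Proteins that bacteria also have, the universal ones, and those found only in some domains of life were compared as lists. The 33 universal members had a median log2 change of 0.27, with 31 higher, and the 43 others had 0.30, with 43 higher. Within the large subunit the 18 universal genes had a median of 0.24, and within the small subunit the 15 universal genes had 0.29. The 2 members with a lower mean, Rpl10 and Rpl5, are both universal.

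Levels differed widely between members although ribosomes hold nearly all of these proteins in equal numbers. Mean FPKM ranged from 2.32 for Rpl28 to 387 for Rpl32, a ratio of 167. It was under 10 FPKM in 23 members and at least 100 FPKM in 12. FPKM corrects for exon length, here that of the 1 transcript kept per gene. That length was 5127 bases for Rps15a and 3440 bases for Rps20, whose coding sequences have 393 and 360 bases. Whether the cells use the transcripts kept was not tested, so the order of levels is uncertain on this count too. Coding sequences of the members were compared with GENCODE M21 transcripts (GRCm38), and another gene with at least 95% identity over at least 80% of the coding sequence was counted as a near-identical copy. Of the 76 members 73 had such a copy, with a median of 6 and a maximum of 57, for Rpl21.

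Of members with no near-identical copy, Rpl8 had a mean level of 215 FPKM and Rps3 of 129 FPKM. The 11 members with 0 or 1 copy had a median of 74.8 FPKM, the 48 with 2 to 9 copies 22.2 FPKM and the 17 with 10 or more copies 7.63 FPKM. Across the 76 members, the number of copies and log2 mean FPKM had a Spearman correlation of -0.52 and a Pearson correlation of -0.42. The number of copies and the log2 change had -0.092 and -0.10. How tags that fit several places were counted is not stated in the labels or the header, so values of members with copies are uncertain, and so is the order of their levels.

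Some rows of the table named after copies hold the locus of the member itself. The coding sequence of Rps27, bases 1 to 255 on chromosome 3 (GENCODE M21, mouse), differs at 0 positions from that of Rps27rt on chromosome 9, and is printed because it is what both genes share.
Rps27 and Rps27rt: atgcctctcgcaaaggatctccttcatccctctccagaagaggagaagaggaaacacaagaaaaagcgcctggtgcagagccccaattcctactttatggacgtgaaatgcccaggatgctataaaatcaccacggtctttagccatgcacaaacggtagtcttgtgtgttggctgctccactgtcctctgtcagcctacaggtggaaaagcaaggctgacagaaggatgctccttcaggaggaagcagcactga
In the table, though, the row of Rps27rt lies on chromosome 3 at 90212667 to 90213647, on the locus of Rps27. The tags in both rows were accordingly the same, 70 and 80 in ACSS2NLS and 58 and 82 in EV. The row of Rpl34-ps1 likewise lies on the locus of Rpl34. These rows list a locus more than once and say nothing on how tags with several matches were counted. Rps27 was at 4.22 and 4.87 FPKM in ACSS2NLS and at 3.71 and 4.89 FPKM in EV, with overlapping groups and a log2 change of 0.071 ± 0.17.

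Copies with a locus of their own had levels unlike those of the member, in either direction. Rpl14-ps1, on chromosome 7, had 4892 and 4259 tags in ACSS2NLS and 3394 and 3639 in EV, more than Rpl14 itself, with 3474 and 2818 in ACSS2NLS and 2168 and 2326 in EV. Rpl32l, on chromosome 10, had 739 and 592 tags in ACSS2NLS and 571 and 464 in EV, far fewer than Rpl32, with 12195 and 8970 in ACSS2NLS and 8095 and 7881 in EV. Rpl37rt, on chromosome 5, had 2468 and 2026 tags in ACSS2NLS and 1700 and 1684 in EV, more than Rpl37, with 765 and 576 in ACSS2NLS and 544 and 532 in EV. Rplp2-ps1, on chromosome 12, was closer to its member. By FPKM the groups did not overlap for Rpl14-ps1, Rpl37rt and Rplp2-ps1, all higher in ACSS2NLS, and overlapped for Rpl32l. These copies were chosen after their values were seen.

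The higher level in ACSS2NLS was also present where copies are few. All 11 members with 0 or 1 copy were higher, with a median log2 change of 0.33. Both ACSS2NLS libraries were above both EV libraries in 11 of 11, against 19.3% of all genes tested. Rpl8, a protein of the catalytic core with no such copy, was at 247 and 225 FPKM in ACSS2NLS and at 185 and 202 FPKM in EV (log2 change 0.29 ± 0.14). In the 17 members with 10 or more copies the median was 0.29, with 17 higher.

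**Figure D4:**
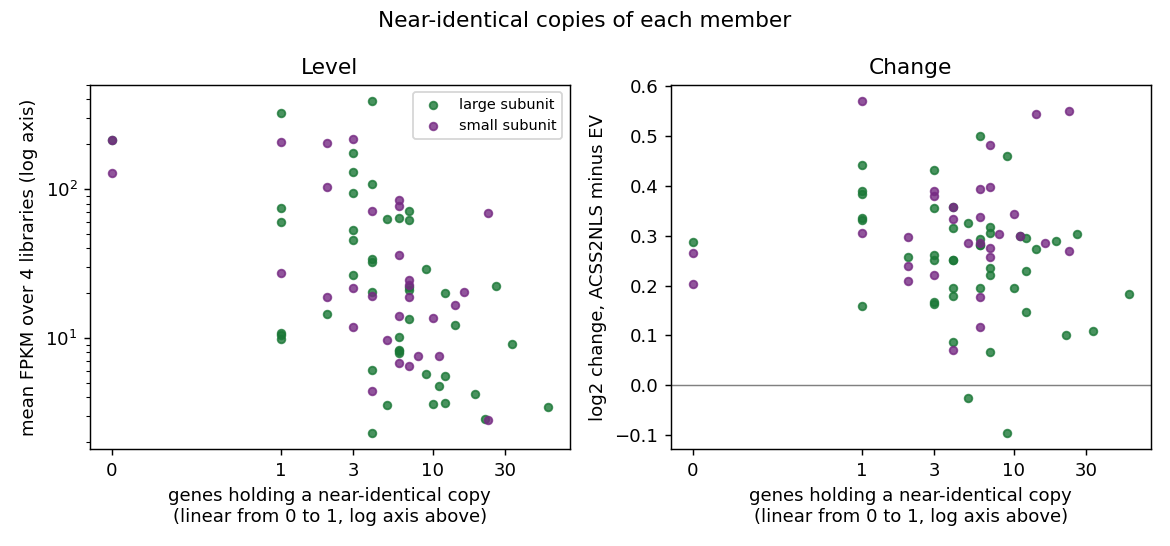
Mean FPKM over the 4 libraries (left, log axis) and log2 change of ACSS2NLS minus EV (right) of each member against the number of other genes that hold a near-identical copy of its coding sequence (x axis). Members with few copies have higher levels (Spearman -0.52), while the change shows little relation to the number of copies (-0.092).

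Together the members took 0.976% and 0.796% of exon tags in the ACSS2NLS libraries and 0.711% and 0.714% in the EV libraries. By FPKM, their share of the whole table was 2.43% and 2.08% in ACSS2NLS and 1.79% and 1.83% in EV. The libraries had about 46000000 to 49300000 tags each, as read from the step of the low FPKM values, and a member had between 33 and 24820 tags in a library. Depth limits the lowest members most. Tags are not independent molecules.

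Relatives of these genes outside the rule behaved much like the members. Of 10 tested paralogues and fusion genes, 9 were higher in ACSS2NLS, with a median log2 change of 0.20, and 0 passed over all genes tested in either direction. The 10 include the row of Rps27rt, which lies on the locus of Rps27. Rpl22l1, the paralogue of Rpl22, was at 35.0 and 27.6 FPKM in ACSS2NLS and at 22.5 and 21.6 FPKM in EV (log2 change 0.48 ± 0.15). Rpl36al, nearly the same protein as Rpl36a, was at 85.6 and 74.2 FPKM in ACSS2NLS and at 63.0 and 62.4 FPKM in EV (0.34 ± 0.12). Rpl22l1 and Rpl36al both stood above their counterparts in the rule by level per length. Rpl10l, known from testis, was listed at 0 in all 4 libraries, and Rpl3l, known from muscle, at 0 in ACSS2NLS replicate 1 and EV replicate 2.

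Other genes of translation were higher too, by less. Of 23 other genes whose messenger RNAs carry a TOP sequence, which include Rack1 and Fau, 20 were higher in ACSS2NLS, with a median log2 change of 0.17. Npm1, a nucleolar chaperone of ribosome assembly, was at 77.9 and 73.4 FPKM in ACSS2NLS and at 50.6 and 58.6 FPKM in EV (log2 change 0.47 ± 0.13), and the elongation factor gene Eef1b2 was at 34.9 and 31.3 FPKM in ACSS2NLS and at 26.2 and 27.0 FPKM in EV. Of 12 helpers that escort ribosomal proteins or assemble the small subunit, 12 were higher, with a median of 0.19. Among them the nuclease gene Nob1 was at 18.2 and 18.2 FPKM in ACSS2NLS and at 15.3 and 14.9 FPKM in EV, and Pdcd2, an escort of a small-subunit protein, was at 14.1 and 12.7 FPKM in ACSS2NLS and at 10.8 and 11.1 FPKM in EV. In each of these lists 0 genes passed over all genes tested, upward or downward. The median exon length was 1626 bases in the TOP list and 1824 bases among the helpers, against 705.5 bases in the members.

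A list gathered for regulators of the translation of these messenger RNAs did not share the pattern. It holds genes of the mTOR pathway and also Myc, Rps6ka1 and Larp4. Of its 15 genes, 9 were higher and 6 lower, with a median log2 change of 0.011, and 0 passed in either direction. These genes are long, with a median exon length of 4969 bases, against 705.5 bases in the members. Their median level was 0.917-fold the EV mean in ACSS2NLS replicate 1 and 1.10-fold in ACSS2NLS replicate 2. The part of gene length in this contrast was not tested. Eif4ebp1, a repressor of cap-dependent translation, was at 19.5 and 18.9 FPKM in ACSS2NLS and at 15.2 and 17.2 FPKM in EV. Akt1, a kinase upstream of mTOR, was at 50.3 and 68.0 FPKM in ACSS2NLS and at 75.6 and 73.3 FPKM in EV. The 77 mitochondrial ribosomal protein genes, which build a separate ribosome, were higher in 63 cases with a median log2 change of 0.12. Their groups did not overlap upward in 34, against 19.3% of all genes tested. The median exon length of the mitochondrial list was 1044 bases. Whether the cytosolic and mitochondrial genes differ was not tested.

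**Figure D5:**
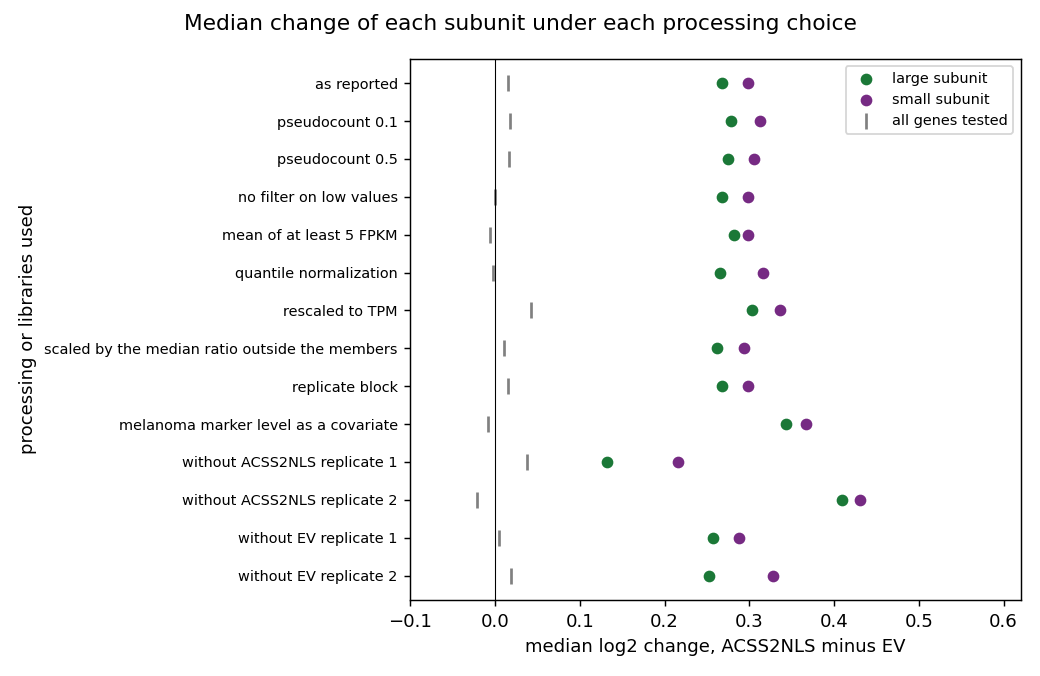
Median log2 change (ACSS2NLS minus EV, x axis) of the large-subunit genes, the small-subunit genes and all genes tested under each processing choice or set of libraries (y axis). The subunit medians stay right of 0 throughout and are lowest without ACSS2NLS replicate 1 (0.13 for the large subunit and 0.22 for the small).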

How the data were processed

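The labels' protocols name the RNeasy Plus Micro kit for RNA and SMART-Seq v4 for the libraries. The tools STAR (2.5.3a) and HOMER and the build mm10 are listed in the submitters' processing notes. Per the file headers, the authors counted tags on exons of RefSeq genes in the sense direction with HOMER, kept 1 transcript per gene and deposited FPKM. The header names 8 tag directories, while 4 library columns are in the table, headed Acss2OE and Acss2WT with numbers; they were read as ACSS2NLS and EV. No source states how tags with several genomic matches were treated.

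The deposited FPKM were put on the log2(FPKM + 1) scale for the 9810 genes averaging 1 FPKM or more, and ACSS2NLS was compared with EV by limma-trend (limma 3.58.1, R 4.3.3), two-sided, Benjamini-Hochberg adjusted over all genes, threshold 0.05, with 2 residual degrees of freedom. The fit was tested on simulated data. As FPKM are normalized values, count models were not used. Total tags were read from the step of FPKM times length, and 100% of the values checked, up to 50 tags, were whole within 0.1. Copies were found with BLAST+ 2.17.0. Promoter windows and start sites are RefSeq's. Members and lists were chosen with earlier results of these data known. Named genes were 12 fixed members, the extremes of change and level in each subunit, and the 2 smallest unadjusted p of each list; Rpl8, Rpl12, Rpl34 and the members named for their highest library were chosen after their values were seen. Some genes that this rule selects are not reported here. Marker lists are given as sums.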

Additional observations from a re-analysis of the deposited data

How the results depend on the processing

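The median log2 change of all members, of the large and of the small subunit stayed above 0 under every alternative: other pseudocounts, other limits on low values, quantile normalization, TPM, median-ratio scaling, the replicate block, the melanoma covariate, and leaving out each library. Leaving out a library gave 0.15 to 0.41 for all members, 0.13 to 0.41 for the large and 0.22 to 0.43 for the small subunit, and -0.083 to -0.021 for large minus small. That difference was -0.017 with a mean of at least 5 FPKM, -0.051 with quantile normalization and -0.024 with the covariate. Among subsets chosen after seeing the data, it was 0.051 for members with 0 or 1 copy and -0.0034 for members under 1000 bases; the cause was not tested. Genes past the threshold numbered 2, but 42 with no filter on low values, 401 with the replicate block and 2 to 11 when a library was left out (11 without EV replicate 1).

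With the replicate block 3 members passed, Rps21, Rps23 and Rpl14 (limma-trend, adjusted p = 0.00891, 0.0184 and 0.0469), in a fit with 1 residual degree of freedom. The libraries share only a number: no source says that it pairs them, although deviations of same-numbered libraries from their group means had a correlation of 0.58 over 9810 genes. In all other fits 0 members passed, with 2 to 49 members at an unadjusted p under 0.05.

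Log2 changes near 0 turned sign. With the covariate Rpl10 had 0.010 and Rps27 -0.035. Leaving out a library gave -0.12 to 0.32 for Rpl17, -0.0054 to 0.18 for Rpl28, -0.097 to 0.047 for Rpl5, -0.13 to 0.36 for Rps19, -0.24 to 0.045 for Rpl10, -0.091 to 0.23 for Rps27 and -0.027 to 0.16 for Rpl3. The sign turned without ACSS2NLS replicate 1 (Rpl17, Rpl28, Rpl5, Rps19), ACSS2NLS replicate 2 (Rpl10, Rps27), EV replicate 1 (Rpl3, Rps27) and EV replicate 2 (Rpl5, Rps19). Fits without a library take the spread of the lone sample from the other group.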
